A study of Mus musculus with 2 samples.

Results

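The cathepsins are the main proteases of the lysosome, and 8 of their genes, Ctsa, Ctsb, Ctsc, Ctsd, Ctsh, Ctsl, Ctss and Ctsz, were followed across cortical myeloid cells of an amyloid mouse model. They were picked by symbol as the family members of interest, 8 of the 31053 genes counted, and all 8 were detected in both libraries. Each was compared between cells with more UMIs of Cst7 than of P2ry12, called Cst7-dominant, and cells with more of P2ry12 than of Cst7, called P2ry12-dominant, and between the libraries. A UMI is a molecular tag that counts 1 captured RNA molecule, and a level is given as CPM, the UMIs of a gene for each 1000000 UMIs of the summed cells.

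The treated library came from mice given Visudyne, a light-activated dye, at 5 uL into the cisterna magna and then 5 steps of 689-nm light through the skull (photoconversion), which the labels describe as ablating the meningeal lymphatic vessels. The control library came from mice given the same 5 uL of Visudyne without light. All mice were male 5xFAD hemizygotes, a transgenic line that deposits amyloid beta, on C57BL/6J, treated at 4 months and again 3 weeks later, and taken after another 3 weeks at 5.5 months. Live single cells positive for CD45 and CD11b and negative for Ly6G were sorted from the cortex, pooled from 3 mice and run as 1 droplet library per group. There was therefore no replicate check of the treatment, and every 95% interval below covers counting error only.

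Cathepsins are made as inactive precursors, carried to the lysosome largely by mannose-6-phosphate receptors, and activated by cleavage at acid pH. Cathepsin D is an aspartic protease, cathepsin A a serine carboxypeptidase, and the others are cysteine proteases held in check by cystatins. Microglia, the resident macrophages of the brain, hold many lysosomes, and near amyloid plaques they take on a state in which P2ry12 is low and Cst7 high. Cst7 encodes cystatin F, itself an inhibitor of cysteine cathepsins including cathepsin C, so that a gene that set the classes here is a regulator of the family, while no cathepsin was used to set them.

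Barcodes under 200 genes or over 10% mitochondrial UMIs were set aside, which left 317 cells of 2000 barcodes in the photoconversion library, with a median of 3410 UMIs, and 555 of 2000 in the control library, with a median of 2670. The libraries shared 27 barcodes in all and 0 among kept cells. Cst7-dominant cells made up 157 of the photoconversion cells (49.5%, exact interval 43.9 to 55.2%) and 207 of the control cells (37.3%, 33.3 to 41.5%). P2ry12-dominant cells were 133 (42.0%) of the photoconversion and 290 (52.3%) of the control cells, and the remaining 27 and 58 cells had equal counts, mostly none of either. With each cell thinned to 1000 UMIs, 44.9% of photoconversion and 38.3% of control cells were Cst7-dominant, with 45 and 116 shallower cells left out. Just inside the rule, 20 of the 157 and 21 of the 207 Cst7-dominant cells and 11 of the 133 and 36 of the 290 P2ry12-dominant cells were ahead by 1 UMI. All 12 microglia markers were detected in either class of both libraries, at a summed 38221 and 39490 CPM in Cst7-dominant and 56736 and 60042 CPM in P2ry12-dominant cells of the photoconversion and control libraries. The list includes P2ry12, a gene that set the classes. P2ry12 alone stood at 889 and 905 CPM in Cst7-dominant and 3585 and 3826 CPM in P2ry12-dominant cells.

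Several library properties moved with the class, and their part in the results was not tested. Cst7-dominant cells were deeper, with medians of 5852 UMIs in the photoconversion and 4655 in the control library, against 2739 and 2206.5 in P2ry12-dominant cells. The nuclear RNA Malat1 stood at 7561 and 6456 CPM in Cst7-dominant cells and at 24621 and 24797 CPM in P2ry12-dominant cells of the photoconversion and control libraries. Ribosomal protein genes took 24.5 and 23.7% of UMIs in Cst7-dominant cells, against 16.8 and 15.2% in P2ry12-dominant cells. Mitochondrial shares were close, at 3.38 and 3.47% in Cst7-dominant and 3.22 and 3.06% in P2ry12-dominant cells. Border macrophage markers summed to 11.5 and 56.6 CPM in Cst7-dominant and to 2.14 and 26.2 CPM in P2ry12-dominant cells, so that the list was higher in Cst7-dominant cells of both libraries. Pf4 carried most of it, at 8.40 and 33.4 CPM in Cst7-dominant cells, against 0 and 3.57 CPM in P2ry12-dominant cells, and Lyve1 and F13a1 were at 0 in Cst7-dominant cells. Monocyte markers summed to 17.6 and 11.6 CPM in Cst7-dominant and 49.2 and 107 CPM in P2ry12-dominant cells, and endothelial and mural markers to 246 and 84.5 CPM in Cst7-dominant and 17.1 and 328 CPM in P2ry12-dominant cells. Neutrophil markers summed to 144 and 139 CPM in Cst7-dominant and 214 and 211 CPM in P2ry12-dominant cells. Of these, S100a8 and S100a9, which define neutrophils, were at 0 in either class of both libraries. The dendritic cell list, at 905 and 837 CPM in Cst7-dominant and 1471 and 1592 CPM in P2ry12-dominant cells, includes Siglech, which microglia express, and Clec9a, Xcr1 and Cd209a were at 0 in Cst7-dominant cells of both libraries.

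The promoters of 4 members are shown because these members lay at opposite ends of the class comparison, with Ctsd and Ctsz higher and Ctsc and Ctss lower in CPM in Cst7-dominant cells. Each run is the 250 bases before the RefSeq start in GRCm38.p6, on the strand of the gene. Capitals mark CACGTG, the E-box that TFEB and related factors of lysosomal genes can bind, or the reverse complement of GAGGAAGT, a sequence of the kind bound by the myeloid factor PU.1. Ctsd lies at chr7:142387828-142388077 (minus strand), Ctsz at chr2:174439040-174439289 (minus), Ctsc at chr7:88277835-88278084 (plus) and Ctss at chr3:95526536-95526785 (plus).
Ctsd: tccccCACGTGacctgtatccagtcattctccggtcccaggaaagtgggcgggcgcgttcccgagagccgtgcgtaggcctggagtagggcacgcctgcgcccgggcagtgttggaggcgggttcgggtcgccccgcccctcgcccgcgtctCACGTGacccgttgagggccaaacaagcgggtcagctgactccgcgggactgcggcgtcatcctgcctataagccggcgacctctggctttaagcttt
Ctsz: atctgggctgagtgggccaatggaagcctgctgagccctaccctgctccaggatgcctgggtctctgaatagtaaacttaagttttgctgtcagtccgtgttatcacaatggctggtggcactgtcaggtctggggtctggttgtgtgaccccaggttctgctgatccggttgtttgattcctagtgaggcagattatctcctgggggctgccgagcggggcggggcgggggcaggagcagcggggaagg
Ctsc: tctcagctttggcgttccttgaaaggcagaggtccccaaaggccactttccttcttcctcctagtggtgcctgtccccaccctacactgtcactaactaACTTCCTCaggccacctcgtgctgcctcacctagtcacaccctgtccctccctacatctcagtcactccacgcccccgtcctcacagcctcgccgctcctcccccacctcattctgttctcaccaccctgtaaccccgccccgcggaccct
Ctss: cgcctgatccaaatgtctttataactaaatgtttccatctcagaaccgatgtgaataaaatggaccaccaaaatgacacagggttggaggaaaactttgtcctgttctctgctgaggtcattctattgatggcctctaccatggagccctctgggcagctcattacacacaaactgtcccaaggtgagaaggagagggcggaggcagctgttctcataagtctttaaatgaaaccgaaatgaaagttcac

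RefSeq windows were found for 6 of the 8 members, 7 windows in all because Ctsa has 2 starts, and Ctsb and Ctsh were not matched. Both strands were searched. The E-box CACGTG lay in 3 of the 7 windows, in Ctsd at 245 and 98 bases before the start, in Ctsl at 236 and in the second Ctsa window at 12, while 6.02% of all 32851 windows of this length hold it. By GENCODE coordinates the Ctsl window (chr13:64370521-64370770) and the second Ctsa window (chr2:164833523-164833772) lie wholly within their genes. The Ctsd window lies partly within its gene, whose span reaches chr7:142388038. How many of all windows lie within genes was not counted. The longer CLEAR element of lysosomal genes, in a palindromic form that contains the E-box, was in 0 of the 7 and in 0.240% of all windows. The AP-1 element TGANTCA was in 0 of the 7 and in 6.75% of all windows. GAGGAAGT was found once, in Ctsc at 151 bases before the start on the opposite strand, and is in 2.44% of all windows. These are matches of letters and no measure of binding.

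Of the 8 cathepsins, 5 were higher in Cst7-dominant than in P2ry12-dominant cells by edgeR's quasi-likelihood test on summed counts (adjusted p under 0.05 over 7354 genes), 1 was lower and 2 did not pass. The order of log2 folds was Ctsb, Ctsd, Ctsz, Ctsl, Ctsa, Ctsh, Ctss and Ctsc. Of all genes tested, 25.6% were called, 14.2% higher and 11.4% lower, and the median log2 fold was 0.53 over the members and -0.02 over all genes. Together the 8 genes supplied 4.52% of UMIs in Cst7-dominant and 3.52% in P2ry12-dominant cells of the photoconversion library, and 4.80 and 3.49% in the control library.

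The folds rest on a scaling choice. The fit used TMM factors, which place the typical gene at no change and raise a log2 fold by 0.31 at the median relative to scaling by total UMIs. The split of calls over all genes was 1045 higher and 836 lower with TMM and 568 higher and 1371 lower with totals. The fit had 4 sums, 1 residual degree of freedom and libraries of different treatment, so its p-values lean on a spread shared across genes. Overlap of the classes, given below, compares their CPM sums, and the share of all genes without overlap was not counted.

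Ctsd, the aspartic endopeptidase, was the most counted member (chr7:142375911-142388038, minus strand). It stood at 21720 CPM in Cst7-dominant and 12862 in P2ry12-dominant cells of the photoconversion library. In the control library it stood at 23048 CPM in Cst7-dominant and 12993 in P2ry12-dominant cells. Both Cst7-dominant sums lay above both P2ry12-dominant sums, and Ctsd rose by a log2 fold of 1.1 ± 0.11 (SE), 2.14-fold, with an edgeR adjusted p of 2.99e-17. Of all genes tested, 5.72% had a larger log2 fold. Gm49369, a gene that overlaps Ctsd on its strand, had 0 UMIs in either library.

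Ctsb, a cysteine protease that cuts both within chains and at their carboxyl ends (chr14:63122462-63145923, plus strand), had the largest fold of the family. Its levels in the photoconversion library were 6112 CPM in Cst7-dominant and 3514 in P2ry12-dominant cells. In the control library they were 6987 CPM in Cst7-dominant and 3526 in P2ry12-dominant cells. P2ry12-dominant levels were thus nearly equal in the libraries, and both Cst7-dominant levels lay well above them. The log2 fold was 1.2 ± 0.098, 2.30-fold (edgeR adjusted p = 2.26e-23).

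Ctsz, a carboxypeptidase that removes single residues (chr2:174427493-174439039, minus strand), followed the same direction. It had 4311 CPM in Cst7-dominant and 2838 in P2ry12-dominant cells of the photoconversion library, and 4463 and 2997 CPM in the same classes of the control library. The classes did not overlap, and the log2 fold was 0.90 ± 0.095, 1.86-fold (edgeR adjusted p = 9.68e-16).

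Ctsl, a cysteine endopeptidase (chr13:64359337-64370890, minus strand), rose less. It had 2750.0 CPM in Cst7-dominant and 2404 in P2ry12-dominant cells of the photoconversion library, and 3164 and 2431 CPM in those classes of the control library. The classes did not overlap and the log2 fold was 0.60 ± 0.094 (edgeR adjusted p = 2.76e-08). Each cell was also thinned to 1000 UMIs and the classes set anew on those counts. In this setting, used for every thinned log2 fold below, Ctsl had 0.087 (edgeR adjusted p = 0.543), so that its call ended.

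Ctsa, the serine carboxypeptidase that also protects neuraminidase and beta-galactosidase in the lysosome (chr2:164832873-164841032, plus strand), had the smallest called rise. It had 1020.0 CPM in Cst7-dominant and 928 in P2ry12-dominant cells of the photoconversion library, and 1164 and 1032 CPM in those classes of the control library. The P2ry12-dominant level of the control library lay above the Cst7-dominant level of the photoconversion library, so the classes overlapped across libraries. The log2 fold was 0.46 ± 0.095 (edgeR adjusted p = 2.57e-05), but 0.16 with scaling by totals (adjusted p = 0.164) and 0.013 in thinned cells (adjusted p = 0.956).

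Ctss, a cysteine endopeptidase that stays active at neutral pH and trims the invariant chain of class II molecules (chr3:95526786-95556403, plus strand), went the other way in CPM. It had 8177 CPM in Cst7-dominant and 11288 in P2ry12-dominant cells of the photoconversion library. In the control library it had 8095 CPM in Cst7-dominant and 10484 in P2ry12-dominant cells. Both Cst7-dominant sums lay below both P2ry12-dominant sums, but the log2 fold of -0.11 ± 0.10 did not pass after TMM scaling (edgeR adjusted p = 0.475). With totals it was -0.42 (adjusted p = 0.000636), and in thinned cells -0.48 (adjusted p = 6.33e-07).

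Ctsc, the dipeptidyl peptidase that activates granule serine proteases (chr7:88278085-88310888, plus strand), was the least counted member and fell. It had 224 CPM in Cst7-dominant and 417 in P2ry12-dominant cells of the photoconversion library, and 264 and 490.3 CPM in those classes of the control library. The classes did not overlap, and the log2 fold was -0.59 ± 0.11 (edgeR adjusted p = 9.23e-06). The Wald test of DESeq2 gave a log2 fold of -0.57 with an adjusted p of 0.0589.

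Ctsh, an aminopeptidase (chr9:90054152-90076089, plus strand), did not pass. It had 860.4 CPM in Cst7-dominant and 992 in P2ry12-dominant cells of the photoconversion library, and 843 and 945 CPM in those classes of the control library. The classes did not overlap in CPM, with Cst7-dominant cells lower. The log2 fold was 0.12 ± 0.096 (edgeR adjusted p = 0.389) with TMM and -0.18 with totals (adjusted p = 0.111), so its sign followed the scaling.

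**Figure D1:**
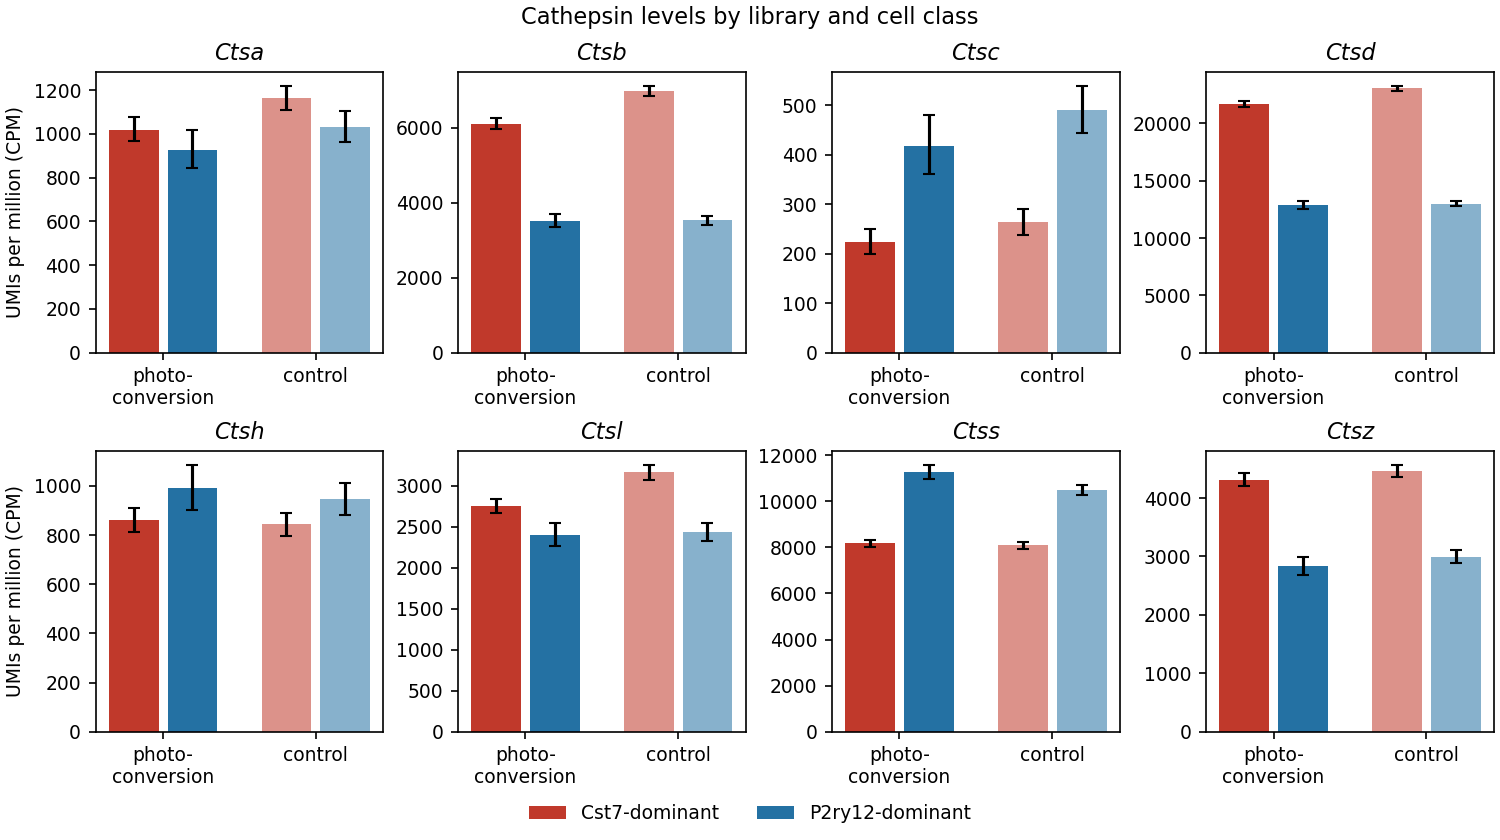
Level of each cathepsin in CPM (vertical axes from 0), by library and class, with exact 95% Poisson intervals. Ctsa, Ctsb, Ctsd, Ctsl and Ctsz bars are taller in Cst7-dominant cells of both libraries. Ctsc, Ctsh and Ctss bars are taller in P2ry12-dominant cells of both.

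**Figure D2:**
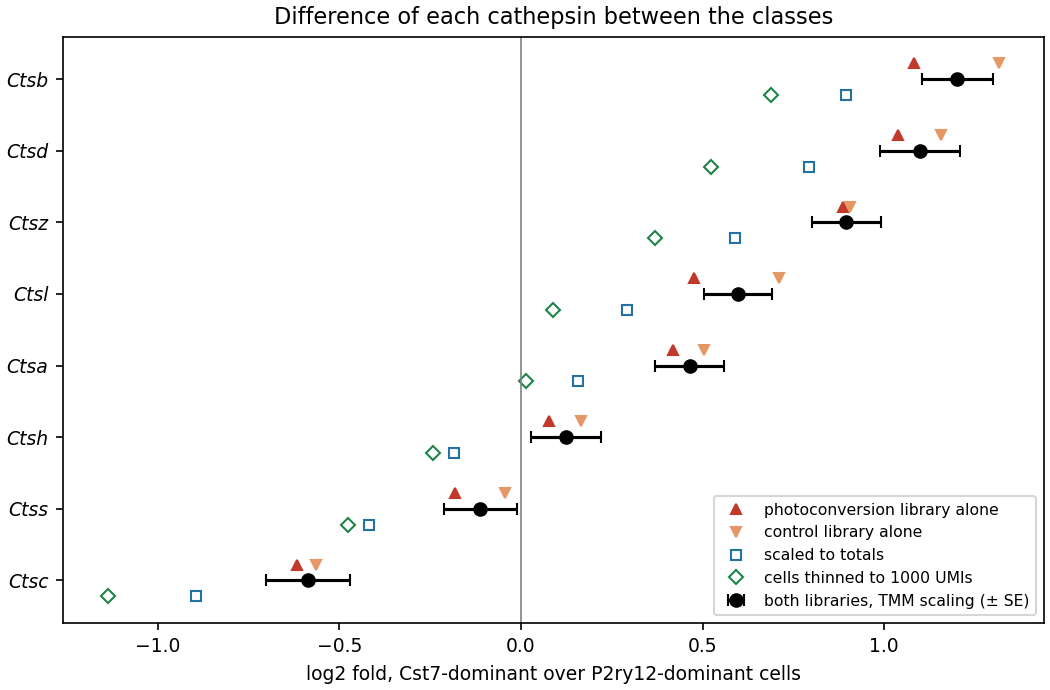
Log2 fold of each cathepsin, Cst7-dominant over P2ry12-dominant cells, from the edgeR fit with TMM (black, ± SE). Triangles show each library alone, squares scaling by totals, and diamonds cells thinned to 1000 UMIs with the classes set anew. Ctsa, Ctsb, Ctsd, Ctsl and Ctsz stay right of 0 in every setting drawn, with Ctsa at 0.013 and Ctsl at 0.087 in thinned cells. Ctsc and Ctss stay left of 0, and Ctsh crosses it.

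Depth differed between the classes, so each cell was thinned to 1000 UMIs with the classes as they were, which left out 15 of the 157 and 24 of the 207 Cst7-dominant cells and 14 of the 133 and 58 of the 290 P2ry12-dominant cells. The median thinned Cst7-dominant cell held 18.5 Ctsd UMIs in the photoconversion library and 19 in the control library, against 12 and 13 in P2ry12-dominant cells. For Ctss the medians were 7 and 7 UMIs in Cst7-dominant cells and 10 and 11 in P2ry12-dominant cells. The ranges of single cells overlapped: between the quartiles, photoconversion cells ran over 11 to 27 Ctsd UMIs in Cst7-dominant and 8 to 19 in P2ry12-dominant cells. Ctsc was seen in 19.0 and 15.3% of thinned Cst7-dominant cells and in 33.6 and 35.3% of thinned P2ry12-dominant cells, whereas without thinning those shares were 59.9 and 51.7%, and 57.1 and 59.3%.

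When classes were set anew on thinned counts and each cell weighed the same, 3 cathepsins were higher and 2 lower, with Ctsb at a log2 fold of 0.69 (edgeR adjusted p = 6.19e-11), Ctsd at 0.52 (2.33e-09), Ctsz at 0.37 (0.00157) and Ctsc at -1.14 (6.01e-06). Of the 1769 genes tested in this setting, 397 were called higher and 405 lower.

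Ratios within ranges of depth, chosen after the values were seen, differed in size. In cells of 1000 to 5000 UMIs the ratio of Cst7-dominant to P2ry12-dominant CPM of Ctsd was 1.34 in the photoconversion and 1.15 in the control library, and above 5000 UMIs it was 2.16 and 2.34. Ctsb had ratios of 1.33 and 1.33 in the lower range and 2.20 and 2.23 in the upper. Ctsa was below 1 in the lower range, at 0.905 and 0.779, and above 1 in the upper, at 1.36 and 1.51. Ctss was below 1 in either range, at 0.613 and 0.648 in the lower and at 0.848 and 0.855 in the upper. Within the upper range Cst7-dominant cells were still deeper, with medians of 13160 and 11802 UMIs against 7104 and 6372 in P2ry12-dominant cells.

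Markers of other cell types were also counted in these cells. Here and below, cells with 3 or more such UMIs from the list of a single other cell type were left out. In either class of both libraries the dendritic cell list, which includes Siglech, held the most such UMIs. How many cells Siglech alone left out was not counted. The filter removed 226 of the 317 photoconversion and 359 of the 555 control cells. In the rest Ctsb kept a log2 fold of 0.49 (edgeR adjusted p = 0.0215) and Ctsd 0.45 (0.0491), while Ctsz had 0.22 (0.263), Ctsl 0.16 (0.449) and Ctsa -0.34 (0.256). Ctsc had -1.58 (0.00932) and Ctss -0.66 (0.00311) there. It left 38 and 65 Cst7-dominant and 37 and 92 P2ry12-dominant cells, and the count of 3 does not scale with a cell's depth. In the 10 photoconversion and 13 control cells with more endothelial, astrocyte, oligodendrocyte and neuron than microglia marker UMIs, Ctsd stood at 1236 and 1747 CPM, against 19352 and 19193 CPM in the other kept cells, at median depths of 745 and 1434 UMIs against 3525 and 2691. Ctsc had 0 UMIs in those 10 photoconversion cells, which allows up to 228 CPM, and was seen in 15.4% of the 13 control cells.

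Ctsd held the largest share of the cathepsin UMIs in either class of both libraries, followed by Ctss. Ctsd supplied 48.1% of the summed cathepsin UMIs in Cst7-dominant and 36.5% in P2ry12-dominant cells of the photoconversion library, and 48.0 and 37.2% in the control library. Ctss supplied 18.1 and 32.0% in those classes of the photoconversion library and 16.9 and 30.0% in the control library. Ctsb supplied 13.5 and 9.97% in the photoconversion library and 14.5 and 10.1% in the control library. Shares of Ctsl were close, at 6.09 and 6.82% in the photoconversion and 6.59 and 6.97% in the control library. These are shares of UMIs, 1 per captured molecule at the 3' end and not divided by length.

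**Figure D3:**
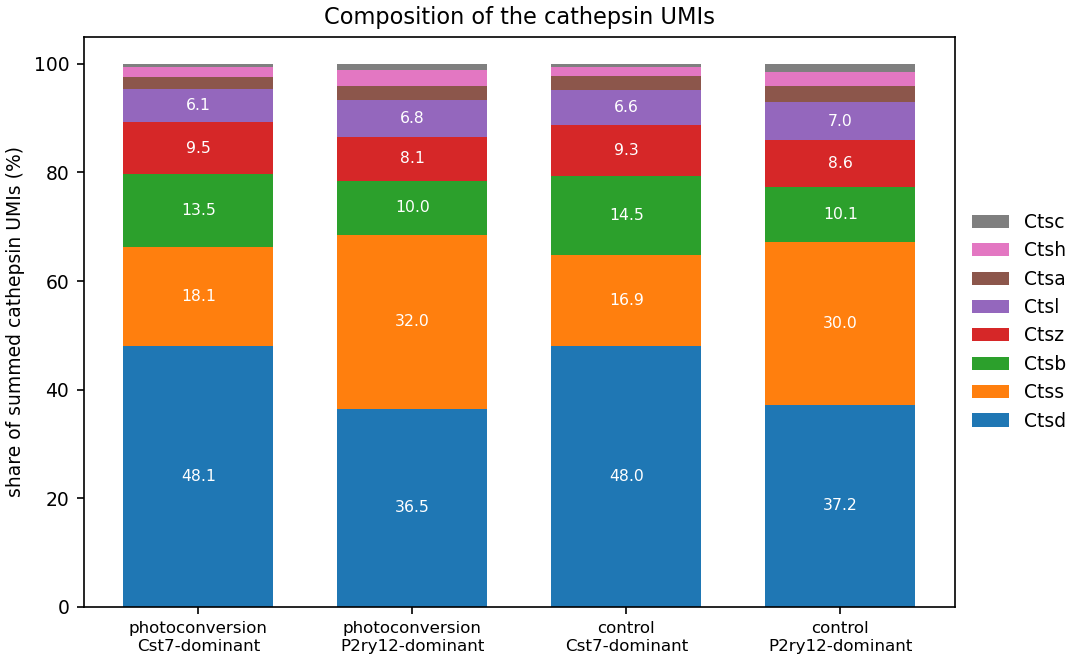
Share of each cathepsin in the summed UMIs of all 8 (vertical axis, percent), by library and class. Ctsd takes 48.1 and 48.0% in Cst7-dominant against 36.5 and 37.2% in P2ry12-dominant cells, and Ctss takes the larger share in P2ry12-dominant cells.

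Cells were also set in 5 steps of the Cst7 share of their Cst7 and P2ry12 UMIs, with no test. Ctss was lowest in cells with Cst7 only, and Ctsd was highest in the step before them. Ctss stood at 11320 CPM in photoconversion and 11566 in control cells with P2ry12 only, at 8377 and 8363 CPM where the Cst7 share lay between 0.5 and 1, and at 4780 and 4875 CPM in cells with Cst7 only. Ctsd stood at 12496 and 15114 CPM in cells with P2ry12 only, at 22113 and 23902 CPM between 0.5 and 1, and at 15040 and 12756 CPM in cells with Cst7 only. Ctsb had 3372 and 3755 CPM in cells with P2ry12 only, 6182 and 7241 CPM between 0.5 and 1, and 4931 and 3932 CPM in cells with Cst7 only. The cells with Cst7 only were 32 and 50 in number and shallow, with medians of 1524 and 1523.5 UMIs against 9337 and 8436 in the step before them, and ribosomal genes took 29.6 and 27.8% of their UMIs. The step with equal counts held 6 and 13 cells.

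**Figure D4:**
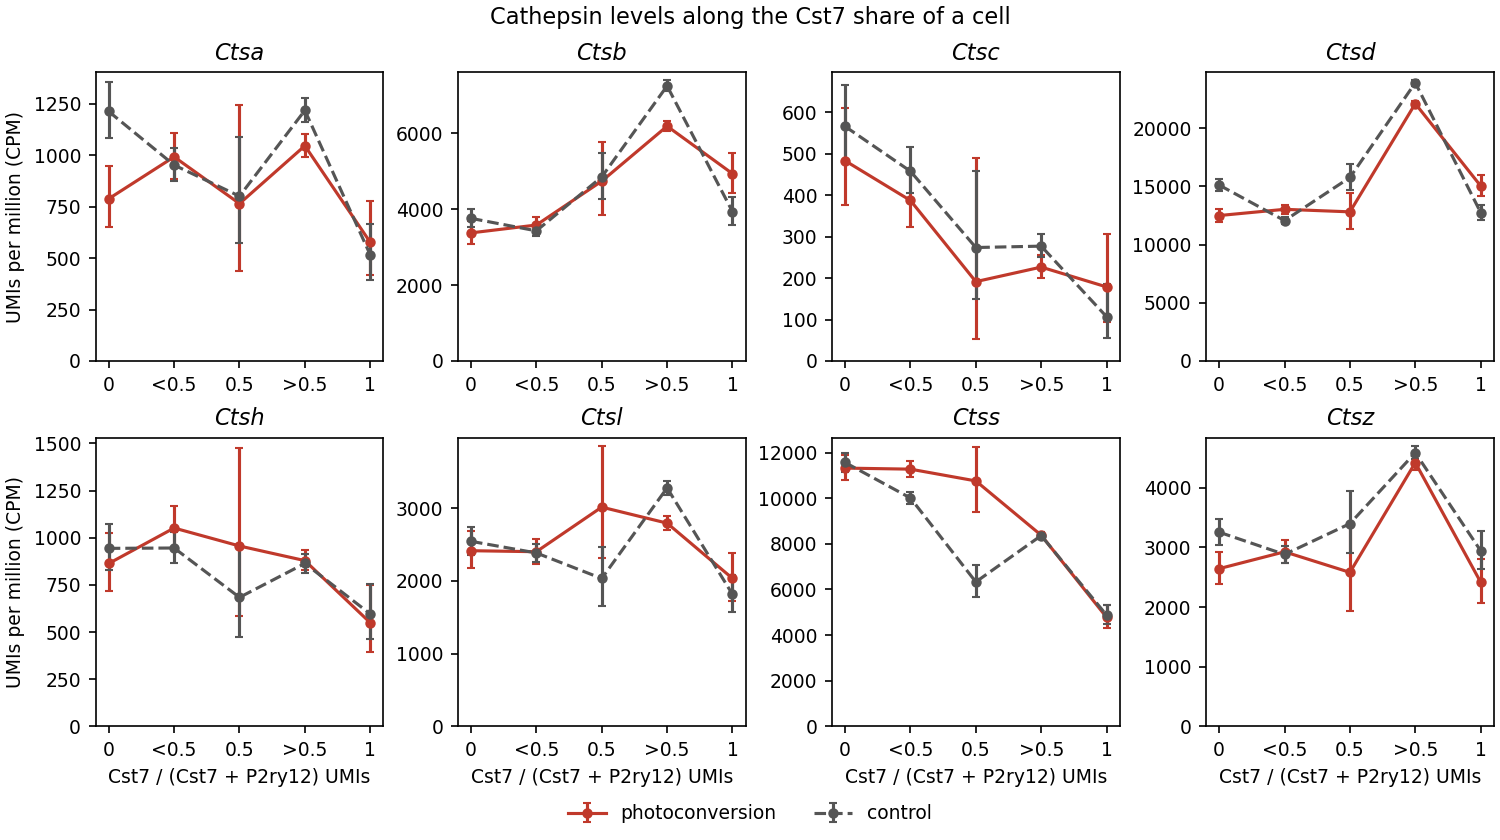
Level of each cathepsin (CPM, vertical axes from 0) over 5 steps of the Cst7 share of Cst7 and P2ry12 UMIs (horizontal axis), for the photoconversion (solid) and control (dashed) libraries, with exact 95% Poisson intervals. Ctsb, Ctsd and Ctsz are highest between 0.5 and 1, and Ctss is lowest in cells with Cst7 only.

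The other comparison, photoconversion against control, asked how ablating the meningeal lymphatic vessels bears on these cells. Summed over all kept cells, the 8 genes had 42237 CPM in the photoconversion and 42244 in the control library, a ratio of 1.0 (0.990 to 1.01). The single ratios ran over 0.792 to 1.03, 4 below and 4 above 1. Past a 1.2-fold difference, 0 cathepsins were higher and 1 lower in the photoconversion library, where 9.78% of 4009 genes were higher and 21.8% lower, and no test was possible with 1 library per group.

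That member was Ctsc, at 271 CPM in the photoconversion and 343 in the control library, a ratio of 0.792 (0.707 to 0.887). Its ratio was 0.848 (0.726 to 0.989) in Cst7-dominant and 0.851 (0.714 to 1.01) in P2ry12-dominant cells, and with the classes given equal weight its log2 ratio was -0.24 in place of -0.34 and 0 cathepsins were past 1.2-fold. In thinned cells the log2 ratio of Ctsc was -0.11 over all cells, -0.20 in P2ry12-dominant and 0.28 in Cst7-dominant cells, where its direction turned and passed 1.2-fold higher. By the classes as they were, thinned Cst7-dominant cells held a mean of 0.26 Ctsc UMIs over 142 photoconversion and 0.19 over 183 control cells. The turn thus rests on few UMIs, and no interval is given for it. Without cells holding 3 or more UMIs of other cells' markers the log2 ratio of Ctsc was -0.05 over all cells. In both of these settings the 1 cathepsin past 1.2-fold lower was Ctsa, at -0.26 in thinned cells and -0.32 without those cells. The share of all genes past 1.2-fold was not counted in either setting. The photoconversion library, lower in Ctsc, was also the one with the larger share of Cst7-dominant cells, and whether this bore on Ctsc was not tested.

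Within Cst7-dominant cells 6 of the 8 ratios were below 1, 5 of them with intervals below 1, and 0 were past 1.2-fold in either direction, against 12.2% of 2615 genes higher and 16.4% lower. Ratios and intervals below 1 were not counted over all genes in any set of cells, and intervals are narrow for highly counted genes. Ctsb had 6112 CPM in photoconversion and 6987 in control cells, a ratio of 0.875 (0.849 to 0.901), and Ctsl 2750.0 and 3164 CPM, a ratio of 0.869 (0.832 to 0.908). Ctsa had a ratio of 0.876 (0.815 to 0.942) and Ctsd of 0.942 (0.928 to 0.957). The median log2 ratio of the 8 was -0.14 and that of all genes -0.02. In thinned Cst7-dominant cells Ctsa (log2 ratio -0.35) and Ctsl (-0.33) were past 1.2-fold lower, besides Ctsc past it higher. The share of all genes past 1.2-fold in thinned Cst7-dominant cells was not counted.

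Within P2ry12-dominant cells the ratios were again below 1 for 6 of the 8, but 0 had an interval below 1, and 0 were past 1.2-fold, against 11.1% of 1646 genes higher and 21.3% lower. Ctss had 11288 CPM in photoconversion and 10484 in control cells, a ratio of 1.08 (1.04 to 1.11). Ctsb had a ratio of 0.996 (0.938 to 1.06) and Ctsd of 0.990 (0.959 to 1.02). Once thinned, P2ry12-dominant cells had log2 ratios of 0.19 for Ctsb and -0.064 for Ctsd. The class difference was smaller in the photoconversion library by 0.19 on the log2 scale for Ctsb (-0.28 to -0.090) and by 0.19 for Ctsl (-0.31 to -0.062), a difference of differences with no residual degree of freedom and no test.

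**Figure D5:**
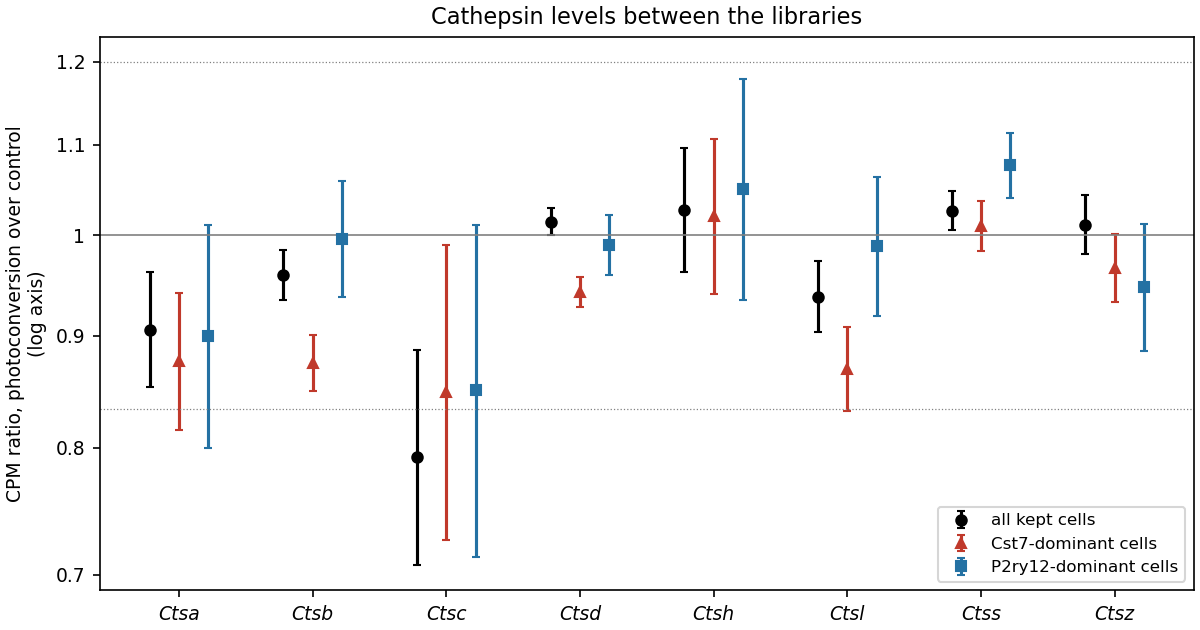
Ratio of CPM in the photoconversion library to CPM in the control library (vertical log axis) for each cathepsin, in all kept cells and in each class, with exact 95% conditional binomial intervals for counting error only. All class ratios lie between 0.848 and 1.08, and Ctsc over all kept cells has the lowest, at 0.792.

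The lists of related genes were tested in the same class fit, where 14.2% of all 7354 genes were higher and 11.4% lower. Of 15 other cathepsin genes, 2 were counted enough to test and both were lower in Cst7-dominant cells. Ctsf, a cysteine endopeptidase, had 97.7 CPM in Cst7-dominant and 171 in P2ry12-dominant cells of the photoconversion library and 123 and 220.2 CPM in the control library (log2 fold -0.52, edgeR adjusted p = 0.00323). Ctso had a log2 fold of -0.58 (edgeR adjusted p = 0.0106). Without cells holding 3 or more UMIs of other cells' markers neither passed, with Ctsf at -0.94 (0.0649) and Ctso at -0.54 (0.450). Ctsk, the collagen-degrading member best known from osteoclasts, had 0 UMIs in kept cells of either library.

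Of 13 inhibitor genes besides Cst7, 4 were tested, of which 1 was higher and 2 lower. Cstb, the cytosolic cystatin B, had 369 CPM in Cst7-dominant and 195 in P2ry12-dominant cells of the photoconversion library and 441 and 171 CPM in the control library (log2 fold 1.48, edgeR adjusted p = 7.65e-22). Cst3, the secreted cystatin C and by far the most counted inhibitor, took 4.37% of UMIs in Cst7-dominant and 8.20% in P2ry12-dominant cells of the photoconversion library and 4.27 and 8.10% in the control library (log2 fold -0.61, adjusted p = 3.27e-05). Serpinf1, whose product PEDF is a secreted serpin not known to inhibit proteases, was also lower, at -2.50 (adjusted p = 4.28e-10), and Serpinb6a did not pass at 0.27 (adjusted p = 0.770). Cst7 set the classes, and its level is no result.

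Of 20 genes of cathepsin processing and lysosomal trafficking, 19 were tested, 5 were higher and 2 lower, and the median log2 fold was 0.23, against -0.02 for all genes. Lgmn, the asparaginyl endopeptidase that cleaves cathepsin precursors, had 1561 CPM in Cst7-dominant and 4329 in P2ry12-dominant cells of the photoconversion library and 1868 and 4938 CPM in the control library (log2 fold -1.13, edgeR adjusted p = 9.46e-23). Psap, the precursor of the saposins, was lower at -0.26 (adjusted p = 0.0261). Mfsd12, needed for cysteine import into lysosomes, was higher at 1.27 (0.00122), Glb1, beta-galactosidase, at 0.75 (0.000513), Grn, progranulin, at 0.52 (9.75e-07), and the membrane proteins Lamp2 at 0.48 (0.00015) and Lamp1 at 0.31 (0.00726). With totals 2 of the 5 higher calls held, Mfsd12 and Grn, Lamp1 stood at -0.0016 (0.991), and Psap, Lgmn and Nagpa were lower. In thinned cells 13 were tested, 0 were higher and 4 lower, with Lgmn at -1.82. There 397 of all 1769 genes tested were higher and 405 lower. Without cells holding 3 or more UMIs of other cells' markers, 10 were tested, 0 were higher and 3 lower, and Grn was 1 of the 3, at -0.61 (0.0168). There 289 of all 1417 genes tested were higher and 255 lower.

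Of 4 transcription factors of lysosomal genes, 3 were tested and Tfe3 was lower, at a log2 fold of -0.74 (edgeR adjusted p = 0.0131), while Tfeb had -0.01 (0.992) and Mitf 0.29 (0.702). Of 7 substrates and partners, 5 were higher and 1 lower, against 14.2% of all genes higher and 11.4% lower. The 5 were Prnp, the prion protein, at 1.95 (edgeR adjusted p = 0.00565), the lysosomal peptidases Dpp7 at 1.30 (2.70e-09) and Scpep1 at 0.66 (0.00347), Cd74, the invariant chain, at 0.63 (9.75e-09) and Tpp1, another peptidase, at 0.46 (0.003), of which Dpp7 and Cd74 passed with totals. In thinned cells 1 of 6 was higher, Cd74, with Dpp7 at 0.26 (0.658), and without cells holding 3 or more UMIs of other cells' markers 0 of 4 were higher, with Cd74 at 0.24 (0.643). Over all genes tested, 397 of 1769 were higher in the thinned setting and 289 of 1417 in the other. Prnp was low throughout, at 15.3 CPM in Cst7-dominant and 12.8 in P2ry12-dominant cells of the photoconversion library and 19.8 and 1.19 CPM in the control library. Pla2g15, a lysosomal phospholipase, was lower at -1.26 (2.74e-15), and App did not pass at 0.05 (0.893).

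Across single thinned cells the members followed each other unevenly. Ctsb and Ctsd had a Pearson r of 0.62 over 272 photoconversion cells and 0.60 over 439 control cells, and Ctsd and Ctsz one of 0.56 and 0.49. Among the 3 of 903 other genes most like Ctsd, ranked by the smaller r of the libraries, were Trem2, a microglial lipid receptor (0.585), and Grn (0.460). Those most like Ctsb were Trem2 (0.409), Cd9 (0.362) and Grn (0.332), and those most like Ctsz were Cd9 (0.373), Trem2 (0.372) and C1qa (0.318). Among the 3 most like Ctss were the complement genes C1qa (0.581) and C1qc (0.563), which were also among the 3 most like Ctsl, at 0.444 and 0.422. None of the 903 other genes reached a smaller r of 0.3 with Ctsa, Ctsc or Ctsh. These values describe cells of shared libraries at 1 fixed depth and carry no test.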

How the data were processed

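Single-cell counts came from 2 libraries, 1 per group, each pooled from 3 mice. The authors deposited raw UMI counts (barcodes by genes). Per the submitters' processing notes, bcl2fastq and Cell Ranger were used with mm10, and the file headers name Cell Ranger 3.0.2. Libraries held 2038693 UMIs (photoconversion) and 2672902 (control). A table of the whole series was not used here.

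Members and gene lists were chosen with earlier results of these data known. All 8 members are named. Of the lists, genes past the threshold and the largest and smallest folds are named. Counts were summed per library and class and fitted with edgeR 4.0.16 in R 4.3.3 (library as a block, TMM, filterByExpr, Benjamini-Hochberg over 7354 genes). The fit was also run on simulated sums, with 50 changed genes at each true fold. It recovered 0% at 1.2-fold, 22% at 1.5-fold, 66% at 2-fold and 96% at 3-fold, and called 0 unchanged genes. The simulation gave all genes 1 spread and held fewer changed genes than were called in the data. Both classes of a library share their animals, which is where the pairing comes from. DESeq2 1.42.0, other scalings, cell filters and class rules were alternatives. Libraries were compared by CPM ratios with exact conditional binomial intervals. Ratios of at least 1.2, or that much below, were counted, over genes with at least 100 UMIs. Levels have exact Poisson and shares exact Clopper-Pearson intervals at 95%. Thinning used 1000 UMIs and seed 1. Doublets were not called. Gene coordinates came from GENCODE vM21 by Ensembl identifier. The correlations used genes with at least 500 UMIs, and the 3 most alike per member were named at 0.3 or more, except 1 that is not reported here. Strand use in counting is not given in the sources used here. Fdft1 lies opposite Ctsb, Neurl2 and Pltp opposite Ctsa, and Nelfcd opposite Ctsz.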

Additional observations from a re-analysis of the deposited data

Results flagged for a closer look

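Barcodes that failed the filters, 1683 in the photoconversion and 1445 in the control library, entered no comparison and still held cathepsin UMIs. Ctsh had 575 CPM (128 UMIs) there in the photoconversion and 428 CPM (107 UMIs) in the control library, a ratio of 1.35 (1.03 to 1.76). Ctss had 7878 CPM in the photoconversion and 7115 in the control library, a ratio of 1.11 (1.04 to 1.18). Both intervals, for counting error only, lie above 1, which drew attention to them, and nothing was tested with 1 library per group. In kept cells the ratios were 1.03 for Ctsh and 1.03 for Ctss. Of the other members, Ctsa had 701 CPM in the photoconversion and 971 in the control library among these barcodes, a ratio of 0.722 (0.587 to 0.886).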

How the results depend on the processing

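Ctsb and Ctsd passed in 12 of 12 tested alternatives of the class comparison, Ctsz and Ctsc in 11, Ctsl in 10, Ctsa in 9, Ctss in 3 and Ctsh in 0. Of 96 tested alternative member values 83 kept direction and side of the threshold. Without cells with 3 or more UMIs of other cells' markers, Ctsa (-0.34) and Ctsh (-0.49) turned negative. There 2 cathepsins were higher and 2 lower, and of 1417 genes tested 289 were higher and 255 lower. Ctsh was also negative with totals (-0.18) and in thinned cells (-0.24). In thinned cells 3 cathepsins were higher and 2 lower, and of 1769 genes tested 397 were higher and 405 lower. With totals 2 cathepsins were lower and 568 genes higher and 1371 lower. DESeq2 called 408 genes higher, 146 lower and 0 cathepsins lower. Without the library as a block for the pairing, 5 cathepsins were higher and 1 lower, as with it, and 893 genes were higher and 692 lower; it changed no member's call. In 1 library alone, with no test, log2 folds in the photoconversion and control libraries were 1.08 and 1.32 for Ctsb and -0.62 and -0.56 for Ctsc. Leaving out cells under 1000 Malat1 CPM, chosen after seeing the data, kept 5 cathepsins higher and 1 lower. Between libraries, 0 cathepsins were past 1.2-fold lower with equal class weights. The causes were not tested. Of 80 alternative library log2 ratios 29 moved past their counting interval, as did 15 of 64 within classes, and TMM shifts those over all cells by 0.068.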
